A study of Mus musculus with 4 samples.

Results

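The ionotropic and metabotropic glutamate receptor genes were followed in single nuclei of the mouse posterior hindbrain, which holds the area postrema (AP) and the nucleus tractus solitarii (NTS). The list had 32 genes out of the 32285 genes counted. It held 4 AMPA receptor subunits (*Gria1* to *Gria4*), 7 NMDA receptor subunits (*Grin1*, *Grin2a* to *Grin2d*, *Grin3a* and *Grin3b*), 5 kainate receptor subunits (*Grik1* to *Grik5*), the delta receptor *Grid1*, 7 metabotropic receptors (*Grm2* to *Grm8*), 6 auxiliary subunits (*Neto1*, *Neto2*, *Cnih2*, *Cnih3*, *Shisa6* and *Shisa9*) and the scaffold genes *Grip1* and *Dlg4*. Members were taken by gene name, and no measured value entered the rule. All 32 had at least 1 unique molecular identifier (UMI, 1 captured RNA molecule) in neurons, and 29 had one in at least 5% of neurons.

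The study used 10x single-nucleus RNA sequencing on 4 libraries, of which 2 were controls and 2 came from AgRP-Gq;POMC-Gi mice. The latter carry AgRP-IRES-Cre with a Cre-dependent hM3DGq allele, and POMC-Dre with a Dre-dependent hM4DGi allele, so that clozapine N-oxide (CNO) excites AgRP neurons and silences POMC neurons. Control mice, labelled WT, have the silent receptor alleles without either recombinase according to the methods. All mice, C57BL/6 of both sexes and 12 to 20 weeks old, received CNO at 3 mg/kg, and tissue was taken 1 h later. The recombinases are driven by the Agrp and Pomc genes, whose neurons lie mainly in the hypothalamus, and samples of a condition were pooled per the methods, so the spread between libraries may be technical and p-values measure that spread alone. In all, 39461 nuclei passed the authors' quality filter, 9723 to 10051 per library, with medians of 3211 to 3502 UMIs per nucleus. Libraries shared between 19 and 36 cell barcodes in pairs. The group tests gave different counts with either AgRP-Gq;POMC-Gi library alone, and both are given. Of 30 marker genes for 10 annotated types, 28 were highest in their own type, the exceptions being *Gfap* (higher in Tanycyte-like nuclei) and *Cspg4* (higher in Mural nuclei).

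Glutamate is the main excitatory transmitter of the NTS, where vagal afferents release it onto second-order neurons. AMPA receptors carry the fast current, NMDA receptors pass calcium once depolarization has lifted their magnesium block, and kainate receptors act on both sides of the synapse. Metabotropic receptors signal through G proteins, with *Grm5* in the group coupled to phospholipase C and *Grm2*, *Grm3*, *Grm4*, *Grm6*, *Grm7* and *Grm8* in the groups that lower cyclic AMP. Auxiliary subunits set the trafficking and gating of the channels, and scaffold proteins hold receptors at the membrane.

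Counts at the 3′ end do not read the channels' editing or splicing. The reference sequence around a glutamine codon of the pore loop is therefore shown for *Gria1* to *Gria4*, *Grik1* and *Grik2*, as a map. At this glutamine codon, called the Q/R site, RNA editing can change the amino acid in some subunits, that of *Gria2* among them, and with it the calcium permeability. A marked codon does not mean that the subunit is edited. The capitals mark that codon in the reference transcripts (GENCODE, GRCm38). Each window is 45 bases of coding sequence, 5′ to 3′ on the gene's own strand.
Gria1: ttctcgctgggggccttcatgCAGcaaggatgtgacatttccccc
Gria2: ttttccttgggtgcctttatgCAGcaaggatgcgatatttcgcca
Gria3: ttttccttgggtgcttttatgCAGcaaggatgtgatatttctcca
Gria4: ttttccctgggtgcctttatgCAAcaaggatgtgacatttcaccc
Grik1: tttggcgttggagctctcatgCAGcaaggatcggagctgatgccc
Grik2: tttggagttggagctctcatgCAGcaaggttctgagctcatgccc
The *Gria2* codon lies at chr3:80706911-80706913 on the minus strand, in exon 11 of 16 of its transcript. The *Grik2* codon is at chr10:49244329-49244331 on the minus strand, in exon 13 of 17. The other codons are at chr11:57243094-57243096 (*Gria1*, plus strand), chrX:41610265-41610267 (*Gria3*, plus), chr9:4464137-4464139 (*Gria4*, minus) and chr16:87940542-87940544 (*Grik1*, minus). Among the RNA editing enzymes, *Adarb1* encodes the one known to edit the *Gria2* site, and its values between neuronal classes are given further on.

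Levels were first compared between the 14 annotated cell types. They are given as UMIs of a gene scaled to 1e+06 UMIs in total (CPM) of all nuclei of a type in a library, with both control replicates (1, then 2) first and both AgRP-Gq;POMC-Gi replicates (1, then 2) after them, then as mean ± SD of the 4 libraries. These levels are a description without a test, since types came from clusters of the same values. Of the 32 members, 12 were highest in neurons, 10 in oligodendrocyte precursor cells (OPC), 4 in Tanycyte-like nuclei, 2 in Mural nuclei, and 1 each in astrocytes, ependymal cells, choroid plexus and the small Oligodendrocytes/OPC set. Library ranges of the highest and the second type did not overlap for 6 of the 12 neuronal members, 8 of the 10 of OPC, 3 of the 4 of Tanycyte-like nuclei, both of Mural nuclei and that of astrocytes. The 6 neuronal members include *Grm6*, which had only 5 UMIs in all neurons. The 12539 neurons had a median of 8704 UMIs and the 16816 oligodendrocytes 2460, so shares of nuclei are also given after thinning each nucleus to 800 UMIs.

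**Figure D1:**
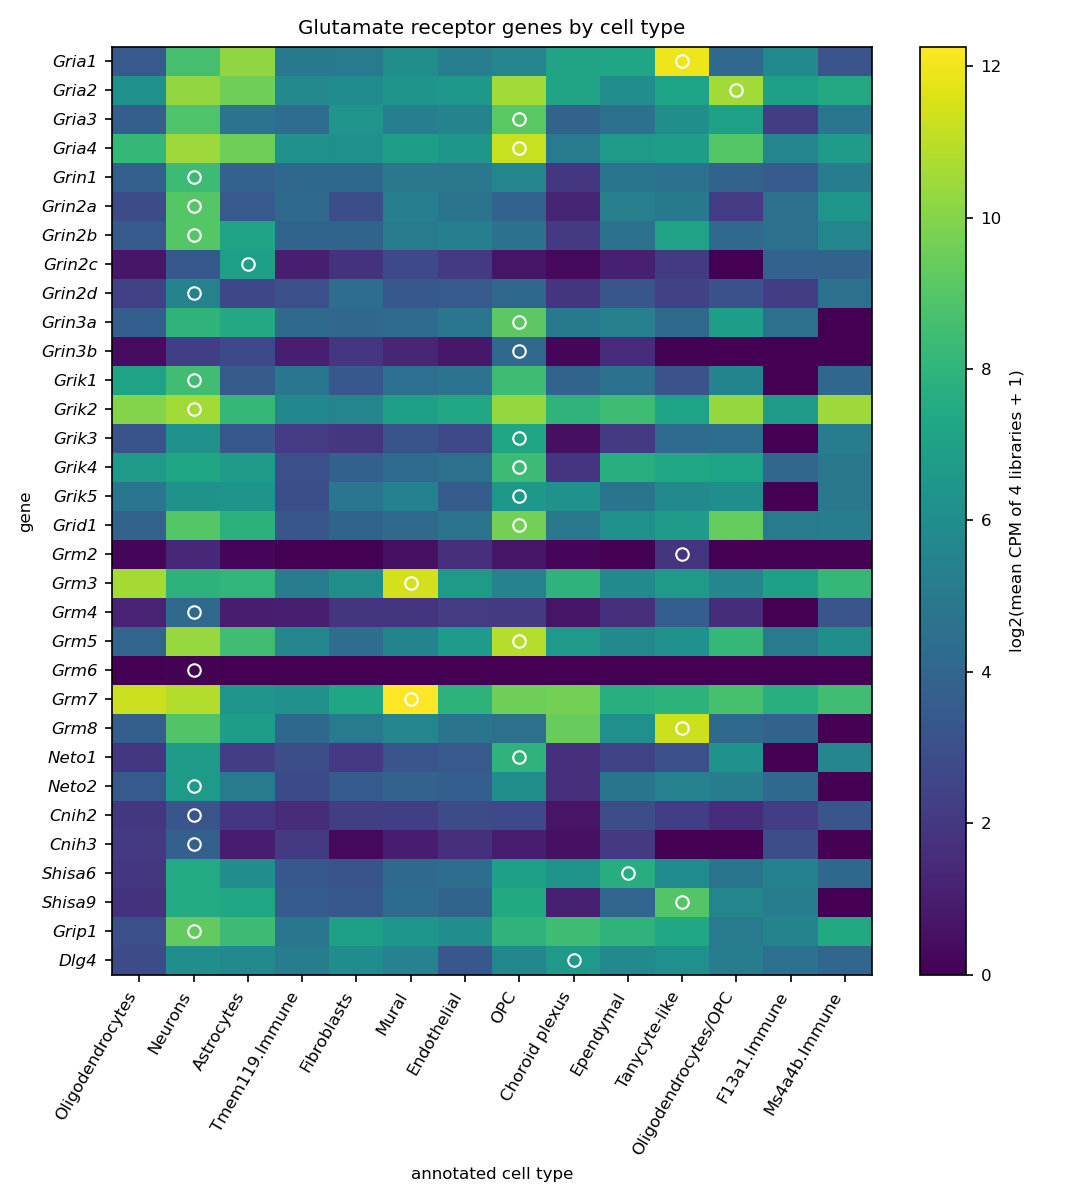
Mean CPM of 4 libraries, as log2(CPM + 1), for each member (rows) in each annotated cell type (columns, most frequent first); a white ring marks the type with the highest mean. Rings fall on neurons for 12 members and on OPC for 10.

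All 4 AMPA subunits had their highest mean outside neurons. *Gria1*, which encodes the GluA1 subunit, was at 4139, 3348, 3783 and 4486 CPM in Tanycyte-like nuclei (3939 ± 487, SD, n = 4), with a UMI in 92.6% of 202 nuclei. In astrocytes it was at 1009, 1227, 1245 and 1203 CPM, and in neurons at 381, 381, 422 and 393 CPM. All 4 libraries therefore gave the order Tanycyte-like, astrocytes, neurons without overlap. After thinning, 81.8% of Tanycyte-like nuclei had a *Gria1* UMI, against 50.7% of astrocytes, 24.9% of neurons and 0.777% of oligodendrocytes. *Gria4* was at 2170, 2179, 2602 and 2459 CPM in OPC (2352 ± 214), above its 1391 ± 64.7 CPM in neurons. *Gria3*, X-linked, was at 548, 574, 581 and 520.5 CPM in OPC against 462 in neurons. *Gria2*, whose edited subunit makes AMPA channels nearly impermeable to calcium, was at 1515, 1431, 1472 and 1584 CPM in OPC and at 1132, 1181, 1289 and 1344 CPM in neurons, ranges that lay close but did not overlap. The Oligodendrocytes/OPC set of 123 nuclei had a *Gria2* mean near that of OPC with a wide spread, 2652, 553, 958 and 1920 CPM, and its place at the top was lost without control replicate 1.

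Of the NMDA subunits, *Grin1*, *Grin2a*, *Grin2b* and *Grin2d* had their highest mean in neurons, *Grin2c* in astrocytes, and *Grin3a* and *Grin3b* in OPC. *Grin1*, the obligatory subunit, was at 333, 328, 372 and 324 CPM in neurons and at 49.0 in OPC. *Grin2a* and *Grin2b*, the main glutamate-binding subunits of the adult brain, were at 525 and 518 CPM in neurons, with *Grin2b* at 142 CPM in astrocytes. *Grin2d* was at 44.3 CPM in neurons. *Grin2c* was the exception among the Grin2 genes: it was at 158, 125, 100 and 112 CPM in astrocytes (124 ± 25.1) and at 9.36 ± 3.48 CPM in neurons, and astrocyte clusters ranged from 5.70 to 217 CPM. Both Grin3 subunits, which form channels of low calcium permeability, were higher in OPC than in neurons. *Grin3a* was at 507, 568, 638 and 583 CPM in OPC and 251 ± 22.0 CPM in neurons, and *Grin3b* was at 20.7, 13.4, 16.5 and 18.7 CPM in OPC and 3.86 in neurons. After thinning, 34.9% of OPC, 16.6% of neurons and 0.94% of oligodendrocytes had a *Grin3a* UMI.

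By mean CPM, 3 of the 5 kainate subunits were highest in OPC. *Grik4*, encoding a high-affinity subunit, was at 363, 329, 322 and 318 CPM in OPC (333 ± 20.3) and at 153 ± 4.79 CPM in neurons. *Grik3* was at 155, 149, 129 and 154 CPM in OPC, against 76.3 in neurons. *Grik5*, the other high-affinity subunit, was at 82.6, 70.1, 110 and 110 CPM in OPC, a range that overlapped those of astrocytes (mean 78.9) and of neurons (76.4). *Grik1* and *Grik2* had their highest mean CPM in neurons, at 359 and 1515 CPM, and were at 351 and 1274 CPM in OPC. For both, the library ranges of the highest and second type overlapped. After thinning, the largest share for both was that of OPC. The small Ms4a4b.Immune set, at 1386 ± 2513 CPM, was first for *Grik2* without control replicate 2 or without either AgRP-Gq;POMC-Gi replicate. *Neto1*, an auxiliary subunit of kainate receptors, was at 260.3, 224, 269 and 261 CPM in OPC and at 107 in neurons, whereas *Neto2* was highest in neurons, at 103 CPM. The delta receptor *Grid1*, which binds cerebellins, was at 854, 814, 836 and 794 CPM in OPC against 527 in neurons.

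The metabotropic receptor genes *Grm7* and *Grm3* were highest in Mural nuclei, the pericytes and smooth muscle cells of vessels. *Grm7* was at 5253, 4865, 4686 and 4701 CPM there (4876 ± 264), and *Grm3* was at 2980, 2524, 2948 and 2408 CPM in the same nuclei (2715 ± 292). In oligodendrocytes *Grm7* was at 2378, 2211, 2922 and 2396 CPM and *Grm3* at 1504, 1628, 1568 and 1566 CPM. For *Grm7* neurons followed at 1816 ± 84.9 CPM. For *Grm3* they ranked 6 of the 14 types, at 238 ± 17.7 CPM, close to astrocytes at 264 ± 41.5. The oligodendrocyte markers *Mog* and *Mobp* were at 75.3 and 68.4 CPM in Mural nuclei, at 110 and 152 CPM in endothelial nuclei and at 1105 and 1566 CPM in oligodendrocytes, and *Grm7* was at 241 CPM in endothelial nuclei. The part of oligodendrocyte RNA in the Mural levels was not tested. *Pdgfrb*, the defining pericyte marker, was at 1779 CPM in Mural nuclei. Of the 2 Mural clusters, cluster 13 (706 nuclei) had *Grm7* at 5125 and *Grm3* at 2932 CPM, and cluster 98 (100 nuclei) had them at 2908 and 1070 CPM. After thinning, 88.7% of Mural nuclei had a *Grm7* UMI and 75.6% a *Grm3* UMI, against 5.35% and 3.48% of endothelial nuclei. Oligodendrocytes were not uniform, since *Grm7* ran from 79.0 CPM in cluster 26 to 4549 CPM in cluster 5 and *Grm3* from 271 to 1926 CPM in the same pair of clusters.

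Since *Grm3* and *Grm7* were high in the same cell types, their promoters are shown, as the 250 bases before the RefSeq start (GRCm38.p6), 5′ to 3′ on the gene's strand. Capitals mark the GC box GGGCGG, the one motif of those searched that both hold. The *Grm3* promoter is at chr5:9725353-9725602 (minus strand) and the *Grm7* promoter at chr6:110645262-110645511 (plus strand), the first of 2 for that gene. The second *Grm7* window, chr6:110645348-110645597, overlaps it and is not printed.
Grm3: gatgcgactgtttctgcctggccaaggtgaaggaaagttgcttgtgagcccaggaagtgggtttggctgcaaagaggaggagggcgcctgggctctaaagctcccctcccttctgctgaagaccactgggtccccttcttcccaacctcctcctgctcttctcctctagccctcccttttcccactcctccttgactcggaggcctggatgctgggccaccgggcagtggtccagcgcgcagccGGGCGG
Grm7: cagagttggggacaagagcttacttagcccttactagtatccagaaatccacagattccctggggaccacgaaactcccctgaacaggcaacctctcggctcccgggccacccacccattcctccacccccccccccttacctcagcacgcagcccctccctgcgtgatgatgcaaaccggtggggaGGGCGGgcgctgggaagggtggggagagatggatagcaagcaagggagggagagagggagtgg
Both printed windows hold 8 CpG dinucleotides and the second *Grm7* window 9, against a median of 6 over 32851 promoters. The GC box, searched on both strands, was in 14 of the 28 promoters found for 20 members and in 32.7% of all promoters. Of the other motifs searched on both strands, TATAAA was in 2 member promoters (12.4% of all), ACAATGG in 1 (3.02%), the right-hand part of the RE1 element, GGACAGCG, in that of *Gria2* alone (0.992%), and its left-hand part, TTCAGCACC, in that of *Grm2* alone (0.301%). TGACGTCA (1.55%) and the palindrome of nuclear factor I (0.0365%) were in none.

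The other metabotropic genes were spread over neurons and glia. *Grm8* was at 2920, 1411, 3181 and 2674 CPM in Tanycyte-like nuclei (2546 ± 785) and at 491 ± 37.7 CPM in neurons, with 64.7% and 22.9% of nuclei positive after thinning, against 0.78% of oligodendrocytes. *Grm5* was at 1852, 1802, 1873 and 1952 CPM in OPC (1870 ± 62.6), against 1317 ± 78.7 CPM in neurons and 356 in astrocytes, whose clusters ran from 36.8 to 806 CPM. *Grm4* was at 18.0 CPM in neurons. *Grm2* and *Grm6* were barely counted, with 209 and 5 UMIs in all neurons, and the highest mean of *Grm2*, in Tanycyte-like nuclei, rests on 1 UMI. Of the AMPA auxiliary subunits and scaffolds, *Shisa9* was at 205, 500, 466 and 816 CPM in Tanycyte-like nuclei (497 ± 250) and 182 in neurons. *Shisa6* was at 222, 224, 103 and 230 CPM in ependymal cells, a range that included the neuronal mean of 178. *Dlg4*, encoding PSD-95, was at 108, 82.8, 119 and 65.9 CPM in choroid plexus, whose nuclei came almost wholly from 1 library of each group, and at 67.9 in neurons. *Cnih2*, *Cnih3* and *Grip1*, an AMPA receptor-binding scaffold, were highest in neurons, at 8.48, 12.7 and 639 CPM.

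Levels of different genes were compared only per kilobase (kb) of gene span, because the counting included introns and long genes gather more UMIs. On that scale *Grin1* (12.1 ± 0.80 CPM per kb) and *Gria2* (10.2 ± 0.80) were the highest members in neurons, followed by *Gria4* at 3.68, *Grm5* at 2.39, *Dlg4* at 2.22, *Grik2* at 2.18 and *Grm7* at 1.97 CPM per kb. The order depended on the length used. Per kb of exon *Grm7* (309 CPM per kb), *Gria4* (221) and *Grm5* (129) were highest, and *Gria2* and *Grin1* were at 79.5 and 35.0 CPM per kb. Per kb of span, the scale of the counts that follow, *Gria2* was the highest AMPA subunit in all 134 clusters labelled as neurons, whereas per kb of exon *Gria4* was above it over all neurons. Among the Grin2 genes no such rule held: *Grin2b* led in 52 clusters, *Grin2a* in 44, *Grin2d* in 22 and *Grin2c* in 16. The log2 ratio of *Grin2a* to *Grin2b* per kb had a median of -0.35 over clusters and ran from -3.47 in cluster 130 to 2.87 in cluster 133. Among kainate subunits *Grik2* led in 89 clusters, *Grik5* in 33, *Grik1* in 9 and *Grik3* in 3. Among group III metabotropic genes *Grm7* led in 115 clusters, *Grm8* in 16 and *Grm4* in 3.

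Excitatory and inhibitory neurons were then compared. To keep the test apart from the clustering, nuclei were classed by their own UMIs of the vesicular transporter genes: 2317 *Slc17a6* nuclei (at least 2 *Slc17a6* UMIs and no *Slc32a1* UMI, 466 to 669 per library, median 11596 UMIs) and 2229 *Slc32a1* nuclei (at least 1 *Slc32a1* UMI and no *Slc17a6* UMI, 467 to 637 per library, median 10166 UMIs). *Slc17a6* encodes the transporter that loads glutamate into vesicles and *Slc32a1* the one that loads GABA and glycine. The classes held 18.5 and 17.8% of neurons. With clusters classed by the same genes, 96.6% of *Slc17a6* nuclei lay in *Slc17a6* clusters and 0.777% in *Slc32a1* clusters. Of *Slc32a1* nuclei, 80.1% lay in *Slc32a1* clusters and 5.20% in *Slc17a6* clusters. Sums per library and class entered edgeR's quasi-likelihood test with the library as a block, and a gene was called at a Benjamini-Hochberg adjusted p under 0.05 over all 12536 genes tested. Of 29 members tested, 16 were called, 8 in each direction, where 13.4% of all genes were called (5.54% higher in *Slc32a1* nuclei and 7.89% higher in *Slc17a6* nuclei). All 16 kept their sign under every alternative run, and 15 had the same direction in 4 of 4 libraries, *Grid1* in 3 of 4. Without the scaling factors that correct for composition (TMM), 10 members were called higher in *Slc32a1* nuclei and 5 higher in *Slc17a6* nuclei. With at least 2 UMIs of the transporter gene required in both classes, 10 of the 16 stayed called.

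Members higher in *Slc32a1* nuclei were led by kainate receptor genes. *Grik3* (ENSMUSG00000001985, chr4:125490700-125714173, plus strand) was at 63.4, 44.5, 49.9 and 62.6 CPM in *Slc17a6* nuclei and at 97.5, 80.2, 110 and 100.0 CPM in *Slc32a1* nuclei, ranges that did not overlap. Its log2 difference was 0.77 (SE 0.07, edgeR adjusted p = 1.6e-06). Thinned to 2000 UMIs, 8.34% of *Slc17a6* nuclei and 17.2% of *Slc32a1* nuclei had a *Grik3* UMI, and thinned to 800 UMIs, 5.67% of all neurons and 0.70% of oligodendrocytes had one. *Grik2* (ENSMUSG00000056073, chr10:49094833-49788766, minus strand) was at 1208, 1173, 1379 and 1102 CPM against 1811, 1811, 1869 and 1865 CPM, a log2 difference of 0.55 (SE 0.05, edgeR adjusted p = 4.2e-07). The lowest *Slc32a1* library thus lay above the highest *Slc17a6* library. *Neto1*, which binds the kainate subunits, was at 91.9, 82.7, 92.2 and 88.2 CPM against 143, 125, 123 and 133 CPM, a log2 difference of 0.51 (SE 0.05, edgeR adjusted p = 1.8e-06). *Grm3*, *Gria3*, *Grip1*, *Gria1* and *Grm7* were also called higher in *Slc32a1* nuclei, with log2 differences of 0.34, 0.32, 0.31, 0.31 and 0.15.

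Members higher in *Slc17a6* nuclei were led by auxiliary subunits of AMPA receptors and by *Grm8*. *Cnih3* (ENSMUSG00000026514, chr1:181352628-181460641, plus strand), a cornichon that slows AMPA receptor deactivation, was at 35.0, 15.6, 9.69 and 20.4 CPM in *Slc17a6* nuclei and at 6.92, 6.74, 5.53 and 7.48 CPM in *Slc32a1* nuclei. Its log2 difference, *Slc32a1* minus *Slc17a6* nuclei, was -1.58 (SE 0.18, edgeR adjusted p = 1.1e-05), with a wide spread between *Slc17a6* libraries. The libraries held 76, 6, 6 and 39 nuclei of cluster 72, and the part of this cluster in the spread was not tested. Without that cluster the difference was -0.88. *Grm8* (ENSMUSG00000024211, chr6:27275119-28135178, minus strand), a presynaptic receptor, was at 594, 549, 677 and 620 CPM against 335, 347, 371 and 351 CPM. The difference was -0.84 (SE 0.04, edgeR adjusted p = 9.5e-10). *Shisa6* (ENSMUSG00000053930, chr11:66211725-66525964, minus strand), which keeps AMPA receptors from desensitizing, was at 234, 203, 233 and 229 CPM against 138, 131, 136 and 116 CPM, a difference of -0.84 (SE 0.05, edgeR adjusted p = 1.1e-08). None of these pairs of ranges overlapped. *Shisa9*, *Grik4*, *Dlg4*, *Gria2* and *Grid1* were called in the same direction, at -0.58, -0.23, -0.20, -0.15 and -0.14, and *Dlg4*, *Gria2*, *Grid1* and, in the other direction, *Grm7* lost the call in 6 to 8 of 13 alternatives each.

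**Figure D2:**
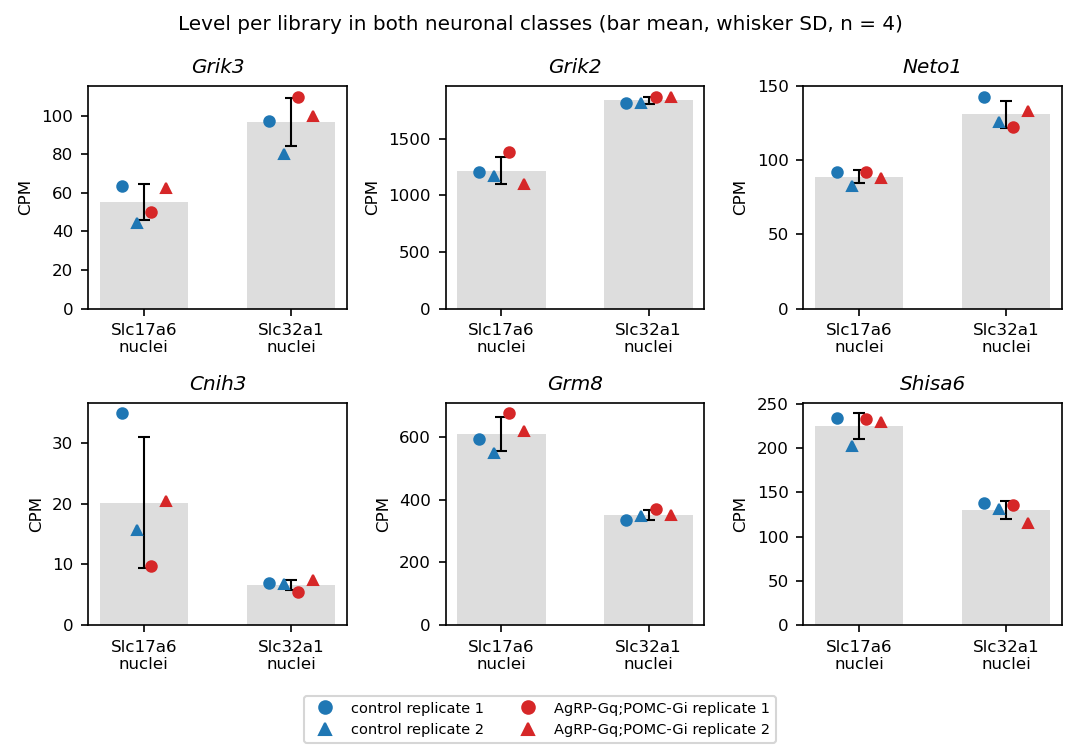
CPM per library (points; circles, replicate 1; triangles, replicate 2; blue, control; red, AgRP-Gq;POMC-Gi) of the 6 members with the largest called differences between Slc17a6 and Slc32a1 nuclei; bars are means of 4 libraries and error bars SD, on linear axes from 0. The 4 libraries of one class lie apart from the 4 of the other in each panel.

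By family, 2 of 4 AMPA subunits were called higher in *Slc32a1* nuclei and 1 higher in *Slc17a6* nuclei, and of the 5 kainate subunits 2 and 1. Of the AMPA auxiliary subunits in the list, 3 of 4 were higher in *Slc17a6* nuclei, with a median log2 difference of -0.71 over the 4 against 0.01 over all genes tested. None of the 6 NMDA subunits tested was called, and their differences lay between -0.30 (*Grin2c*, adjusted p = 0.20 by edgeR) and 0.05 (*Grin2d*, adjusted p = 0.69 by edgeR). Related genes outside the list were counted in the same fit. Of 8 further AMPA auxiliary subunits, 1 was higher in *Slc32a1* nuclei (*Cacng3*, 0.49) and 2 in *Slc17a6* nuclei, led by *Cacng5* at -0.61. Of 15 scaffold and signalling genes of the postsynaptic density, 6 were higher in *Slc17a6* nuclei and none in *Slc32a1* nuclei, with *Dlgap3* lowest at -0.38. Among 9 assembly and trafficking genes *Nptx1*, a secreted pentraxin that clusters AMPA receptors, was the one called, at -0.64. Of the editing enzymes, *Adarb2*, which is thought to lack editing activity, was higher in *Slc32a1* nuclei at 1.12, whereas *Adarb1* was at 0.15 (adjusted p = 0.089 by edgeR) and *Adar* at 0.06. Of the ligands of delta receptors, *Cbln2* was lower in *Slc32a1* nuclei, at -2.24. Among 6 uptake genes 2 were called in each direction, with *Slc1a1* at 0.20 and *Slc1a2* at -0.58.

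Across the 134 neuronal clusters the members differed in how far their levels spread. The clusters came from the same counts, so their levels are a description. Of the 26 members whose median cluster lay above 10 CPM, *Gria4* was the most even, with its highest cluster at 1.62 times the median cluster, and *Grin1* followed at 2.01 times. *Grik1* was the least even of the 26, its highest cluster standing at 11.9 times the median. Cluster numbers are the authors' preliminary clusters, and each cluster is described by its leading genes only.

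**Figure D3:**
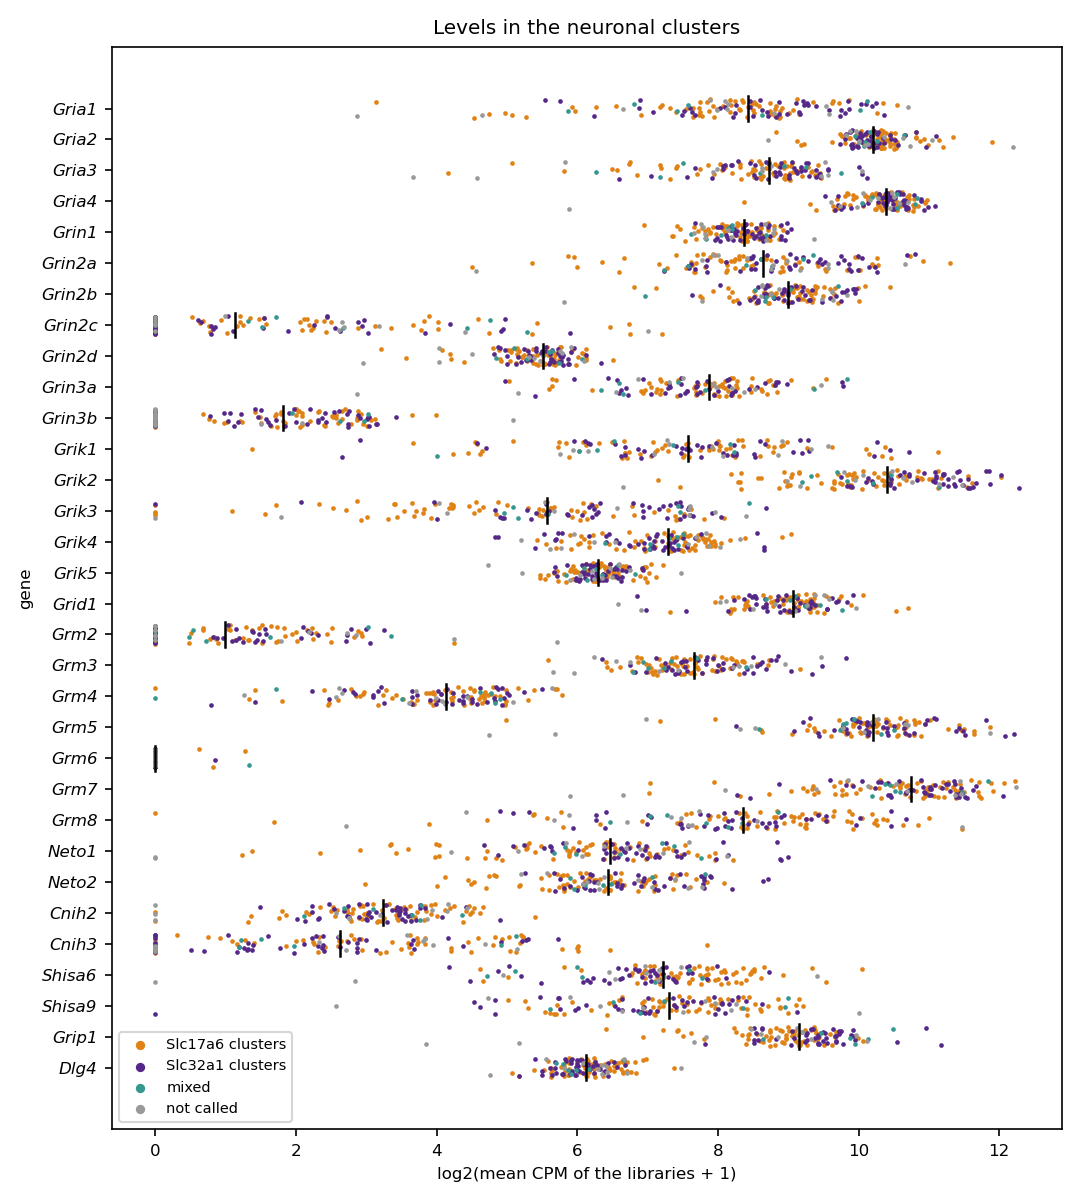
Mean CPM of the libraries, as log2(CPM + 1), of each member (rows) in 134 neuronal clusters (points); colours give the class of a cluster by its transporter genes and the black line the median cluster. Most points of Gria4 and Grin1 lie close to their line, and points of Grik1, Grik3 and Grm8 spread far to both sides.

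*Grik1* was at 2059, 2482, 2161 and 2271 CPM (2243 ± 181) in cluster 161, which was led by *Slc7a15* and also by *Slc17a7*, and all of its 48 nuclei had a *Grik1* UMI. The next cluster, 55, was at 1686 CPM and the lowest, 146, at 1.59 CPM. *Grik3* was highest in cluster 126, led by *Kcnk13*, *Tfap2b* and *Nos1*, at 371, 477, 443 and 344 CPM (409 ± 61.6), 8.75 times its median cluster. *Neto2*, an auxiliary subunit of kainate receptors, had its highest level in the same cluster, at 416 ± 87.7 CPM. *Grin2a* was at 2419, 2903, 2500 and 2233 CPM in cluster 146, led by *Rxfp1*, which was the cluster with the least *Grik1*. Cluster 38 came second for *Grin2a*, at 1937 ± 309 CPM. *Shisa6* was at 949, 1169, 1350 and 764 CPM in cluster 129, led by *Bnc2* and *Ebf2*, 7.17 times its median cluster.

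*Grm8* and *Shisa9* shared their highest cluster, 182. Its 27 nuclei (4, 10, 11 and 2 per library) had a median of 3614 UMIs and were led by *Lmx1a*, *Samd3* and *Otx2os1*. *Grm8* was at 2362, 2529, 3972 and 2531 CPM there (2849 ± 753), and *Shisa9* at 1575, 1022, 784 and 723 CPM. *Gria2* was also highest in that cluster, at 4696 ± 1253 CPM, while *Gria1*, *Gria4*, *Grin2b*, *Grik2*, *Grm5*, *Grm7*, *Grip1* and *Dlg4* had their lowest levels there. Cluster 121 was close behind for *Grm8*, at 2830 ± 297 CPM, and was the highest without AgRP-Gq;POMC-Gi replicate 1. Cluster 63 was next for *Gria2*, at 3819 ± 384 CPM. Cluster 177, highest for *Grik5* and *Dlg4*, held 36 nuclei, 35 of them from control replicate 1, and was led by the oligodendrocyte-type genes *Prr5l*, *St18* and *Mobp*, so its levels are not read as those of neurons.

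The remaining members peaked in other clusters. *Grm5* was at 4737 ± 1107 CPM in cluster 171 and at 4347 ± 350 CPM in cluster 144, and *Grik2* was highest in that cluster 144, at 4968 ± 311 CPM. *Grm7* and *Gria1* were both highest in cluster 142, led by *Zic1*, at 4813 ± 511 and 1670 ± 81.1 CPM. *Grid1* was highest in cluster 154 (1661 ± 145 CPM, all 53 nuclei positive), *Grik4* in cluster 159, led by *Casr* and the noradrenaline transporter gene *Slc6a2* (524 ± 57.7 CPM), and *Grin3b* in cluster 116, led by *Prph*, *Slc5a7* and *Chat*, genes of cholinergic motor neurons (32.9 ± 25.7 CPM). *Grin1* was highest in cluster 104, led by *Gabra6*, at 661 ± 165 CPM, and *Grin2c* was at 128 ± 35.9 CPM in the same cluster and at 146 ± 35.5 CPM in cluster 175. *Gabra6* and *Grin2c* are both known from cerebellar granule cells. *Grip1* and *Neto1* were highest in the clusters 56 and 59 (2296 ± 228 and 509 ± 43.9 CPM), both led by *Kcnmb2*. Thinned to 2000 UMIs, 19 of the 32 members kept their highest cluster, and 25 to 29 did when 1 library was left out.

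Of the 32 members, *Cnih3* had the largest share of its neuronal UMIs in 1 cluster. Cluster 72, led by *Ano2* and *Cdk6*, had it at 224, 332, 134 and 229 CPM (230 ± 81.2) with a UMI in 82.7% of 127 nuclei (0.827% of the shallower oligodendrocytes), and it gave 24.9% of all *Cnih3* UMIs of neurons from 1.01% of neurons. The cluster's nuclei came unevenly from the libraries, 76, 6, 6 and 39. The next cluster, 158, was at 87.0 ± 50.5 CPM. With cluster 72 left out of the class test, *Cnih3* stayed called with a log2 difference of -0.88 in place of -1.58 (edgeR adjusted p = 5.9e-05), 18 members were called, and all 16 named above were among them.

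Pairs of members varied together only loosely over clusters. For the 26 members with a median cluster above 10 CPM, the median Spearman rho of 325 pairs over 134 clusters was 0.04, with the libraries and depth shared by all points. The 1 pair above 0.5 was *Gria1* with *Grin2b*, at 0.51. The 10 pairs of a kainate subunit with *Neto1* or *Neto2* ran from -0.14 (*Grik5* with *Neto1*) to 0.39 (*Grik3* with *Neto2*). The 6 pairs under -0.3 were led by *Grin1* with *Grik5* at -0.45, *Gria3* with *Shisa9* at -0.41 and *Grin2a* with *Grik4* at -0.39.

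The study asked which hindbrain neurons respond when AgRP neurons are excited and POMC neurons silenced together, and the members were compared between the groups in that light. In all neurons no member was called between the groups (29 tested, 2 at an unadjusted p under 0.05), where 0% of 12115 genes were called by edgeR and 667 fell under that unadjusted level. By DESeq2, 12 genes but no member were called. *Gria2* had the smallest p. It was at 1132, 1181, 1289 and 1344 CPM, so the groups did not overlap, with a log2 difference of 0.25 (SE 0.09, edgeR adjusted p = 0.81). By CPM, *Gria2* was higher in AgRP-Gq;POMC-Gi mice in 103 of the 120 clusters that had 5 or more nuclei per library. The median gene was higher in 55, and 0.103% of 5821 genes in at least as many. All clusters share the same 4 libraries, so these counts are not independent comparisons between the groups. *Grin3a* followed at 232, 238, 281 and 252 CPM, a difference of 0.25 (SE 0.10, edgeR adjusted p = 0.81), which was 0.11 without AgRP-Gq;POMC-Gi replicate 1. *Grm4* was at 19.6, 20.0, 15.01 and 17.5 CPM, with -0.23 (SE 0.10, edgeR adjusted p = 0.81).

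The number of calls moved with the AgRP-Gq;POMC-Gi library used. With replicate 1 alone against the controls, 2017 genes were called (16.6%) and 12 members with them, *Grin1*, *Gria2*, *Grin3a*, *Grm8*, *Grm7*, *Grin2b*, *Gria4*, *Grik2*, *Gria1*, *Grid1* and *Gria3* higher in AgRP-Gq;POMC-Gi mice and *Cnih3* lower. With replicate 2 alone, 29 genes and no member were called. The median absolute log2 difference over all genes was 0.14 with replicate 1 alone and 0.07 with replicate 2 alone, and the median difference over the 29 members was 0.15 and 0.02. In these fits a single library stands for the group and is assumed to vary like the controls. *Cnih3* was at 18.3, 11.8, 7.59 and 13.3 CPM, and its log2 ratio of group means of -0.53 became -0.26 without cluster 72 and -0.35 with clusters weighted equally. The same ratio of *Gria2* was 0.19 over all neurons and 0.16 with clusters weighted equally. Neurons made up 25.4, 27.2, 38.0 and 36.5% of the nuclei, and the part of this difference in the group values was not tested.

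In *Slc17a6* nuclei no member was called (30 tested, none at an unadjusted p under 0.05, edgeR; DESeq2 gave 2 at that level), where 0.0158% of genes were. In *Slc32a1* nuclei no member was called either (29 tested, 2 at an unadjusted p under 0.05, as were 704 of 12395 genes, with 0.0242% of genes called), the smallest p being that of *Gria2*, with a difference of 0.27 (SE 0.10, edgeR adjusted p = 0.82). It was called there without AgRP-Gq;POMC-Gi replicate 1 (0.27, edgeR adjusted p = 0.034) and without replicate 2 of that group (0.26, edgeR adjusted p = 0.0081), but not without either control library. *Grik3* followed there, at 0.30 (SE 0.11, edgeR adjusted p = 0.83), and at 0.17 without AgRP-Gq;POMC-Gi replicate 1 or without control replicate 2. No difference of the group effect between the classes was called for any of 29 members (none at an unadjusted p under 0.05 by edgeR or DESeq2), where 0.016% of genes were called.

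Among glia, astrocytes gave the smallest p-values. None of 20 members was called in the main edgeR fit or by DESeq2, and 0.626% of 8462 genes were called by edgeR. Without TMM factors *Grm8* was called (edgeR adjusted p = 0.042), as were 1.55% of genes. Without a gene filter 2 of 31 members and 1.32% of genes were called. At an unadjusted p under 0.05 there were 8 of the 20 members and 875 of the 8462 genes in edgeR, and 6 members and 439 genes in DESeq2. *Grm8* was at 56.3, 104, 133 and 162 CPM in astrocytes, a log2 difference of 0.93 (SE 0.21, edgeR adjusted p = 0.082). It was 0.56 without control replicate 1 and 1.42 without control replicate 2, where it was called (edgeR adjusted p = 6.7e-09). Astrocyte clusters held different shares of the astrocytes of each library. These were 5.71, 8.95, 15.4 and 15.8% in cluster 20, and 2.18, 3.51, 3.55 and 4.35% in cluster 54. Astrocyte clusters also differed widely in *Grm8*, from 3.07 CPM in cluster 17 to 1396 CPM in cluster 54. The log2 ratio of group means of *Grm8* was 0.88 over all astrocytes and 0.49 with clusters weighted equally. The part of the cluster shares in the *Grm8* difference was not tested. *Gria3* was at 30.5, 31.1, 15.8 and 20.0 CPM, a difference of -0.74 (SE 0.17, edgeR adjusted p = 0.088), and its log2 ratio of group means was -0.78 over all astrocytes and -0.72 with clusters weighted equally. *Grin3a* was at 149, 140, 185 and 193 CPM, with 0.43 (SE 0.11, edgeR adjusted p = 0.14), and its log2 ratio of group means was 0.39 over all astrocytes and 0.36 with clusters weighted equally. In none of these 3 genes did the groups overlap. In OPC no member of 25 was called (3 at an unadjusted p under 0.05 in edgeR, as were 571 of 9016 genes, and none in DESeq2; 0.0444% of genes called), and in oligodendrocytes none of 8 (none at an unadjusted p under 0.05 in edgeR or DESeq2; 0% of genes called by edgeR and 119 genes by DESeq2). Of the related genes, *Homer2*, a scaffold that ties group I metabotropic receptors to calcium stores, was called lower in astrocytes of AgRP-Gq;POMC-Gi mice, at -0.91 (SE 0.14, edgeR adjusted p = 0.019), and no other related gene was called in these sets by edgeR.

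**Figure D4:**
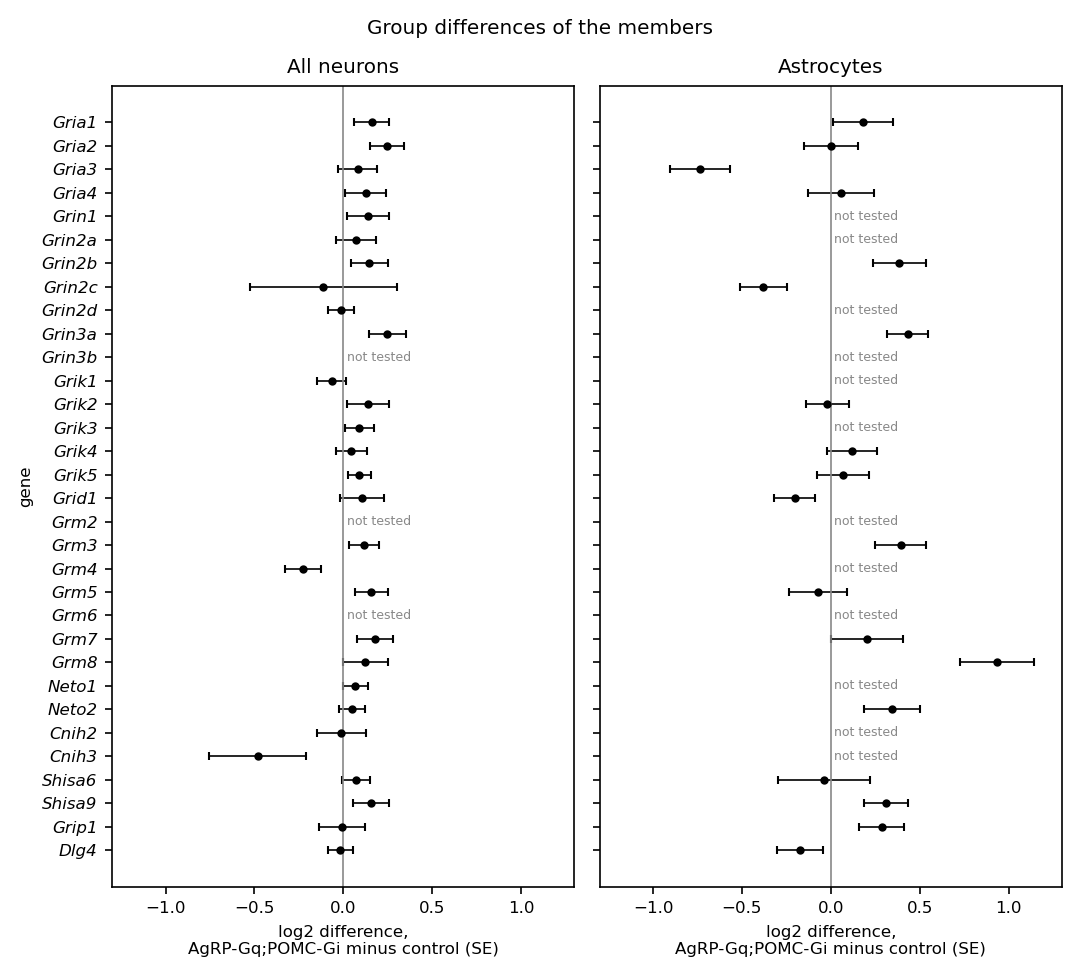
Log2 difference between AgRP-Gq;POMC-Gi mice and controls (points) with SE (bars) for each member in all neurons (left) and in astrocytes (right), from edgeR on sums per library; genes under 5% of nuclei were not tested. In neurons the points lie between -0.48 (Cnih3) and 0.25 (Grin3a), and none was called.

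Within single clusters 3290 pairs of member and cluster were tested in 120 clusters, and 6 were called, 5 higher and 1 lower in AgRP-Gq;POMC-Gi mice, where 0.0385% of all pairs of gene and cluster were called. The adjusted p covers the genes of a cluster but not the number of clusters, and 301 of the 3290 pairs had an unadjusted p under 0.05, as had 63068 of the 1396489 pairs over all genes. DESeq2 called none of the 6, and 2 pairs in all were called when clusters needed 10 nuclei in every library. Of the 6, *Grm8* in cluster 117 and *Shisa9* in cluster 157 passed the detection filter through the group in which each was higher.

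*Grm8* accounted for 3 of the 6. In cluster 96, led by *Igf1* and carrying *Slc32a1*, it was at 131, 183, 353 and 346 CPM, a log2 difference of 1.24 (SE 0.26, edgeR adjusted p = 0.026), with 22, 36, 33 and 11 nuclei. There, 1 nucleus gave 16 of the 32 UMIs of control replicate 1, and 1 gave 17 of the 48 of AgRP-Gq;POMC-Gi replicate 2. In cluster 100 it was at 276, 185, 331 and 1502 CPM, a difference of 1.82 (edgeR adjusted p = 0.0044) that was 0.68 without AgRP-Gq;POMC-Gi replicate 2. The last value came from 9 nuclei, 1 of which gave 50 of 90 UMIs. In cluster 117 it was at 0, 12.4, 83.6 and 123 CPM from 0, 1, 7 and 39 UMIs, of which 1 nucleus gave 22 (edgeR adjusted p = 0.010). A *Grm8* UMI was in 0, 10, 21.4 and 19.0% of the 15, 10, 14 and 42 nuclei of cluster 117. This pair passed the detection filter through the AgRP-Gq;POMC-Gi nuclei, and its call is not read as support. Without the gene filter it stayed called (edgeR adjusted p = 0.0043), on the same few UMIs. Over the 118 clusters in which *Grm8* was tested, 25 were higher and 9 lower at an unadjusted p under 0.05. Over all genes, 63068 of the 1396489 pairs of gene and cluster were under that level, in either direction. All clusters share the same 4 libraries, so these counts are not independent comparisons between the groups. Over all neurons *Grm8* was at 459, 503, 539 and 463 CPM and was not called.

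Cluster 118, led by *B230323A14Rik* and *Ildr2* and carrying *Slc17a6*, gave both *Gria1* and *Grik1*. *Gria1* was at 35.8, 137, 322 and 363 CPM there, from 2, 16, 54 and 150 UMIs. Its difference was 1.95 (SE 0.44, edgeR adjusted p = 0.017), and it was 1.46 without control replicate 1 and 3.50 without control replicate 2. *Grik1* was at 179, 343, 782 and 718 CPM, a difference of 1.63 (SE 0.37, edgeR adjusted p = 0.024). It had 10, 40, 131 and 297 UMIs, and 1 nucleus gave 47 of the 131. The groups did not overlap, and the libraries held 5, 12, 17 and 47 nuclei of the cluster. Over all 118 clusters tested for *Grik1*, 12 were higher and 23 lower at an unadjusted p under 0.05. These clusters share the same 4 libraries as well. Over all neurons *Grik1* was at 373, 377, 325 and 363 CPM and was not called. *Shisa9* was at 250, 59.6, 6.59 and 0 CPM in cluster 157, from 13, 5, 1 and 0 UMIs (edgeR adjusted p = 0.044). A UMI was in 27.3, 26.7, 5.26 and 0% of its 11, 15, 19 and 6 nuclei. This pair passed the 5% filter through the control nuclei, and its call is not read as support. Without the gene filter it was not called (edgeR adjusted p = 0.060). When each library was left out in turn, the call was kept in 1 of 4 fits for *Grm8* in clusters 96 and 100 and for *Shisa9*, in 2 of 4 for *Grm8* in cluster 117, and in none for *Gria1* and *Grik1* in cluster 118.

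**Figure D5:**
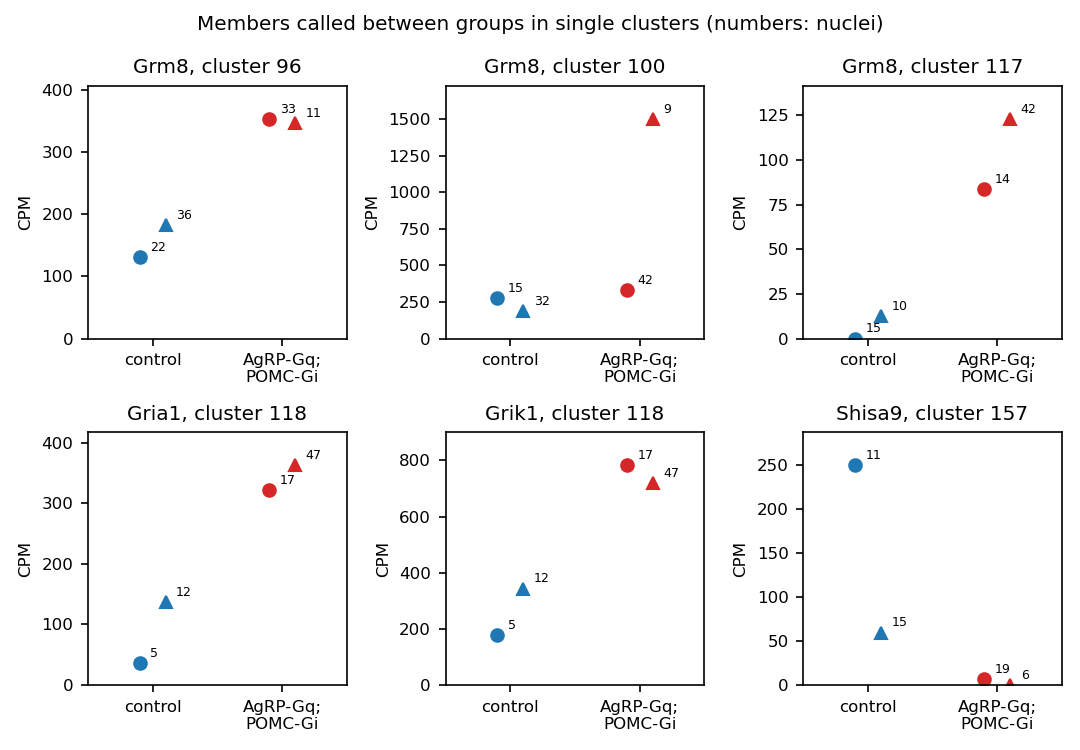
CPM per library (circles, replicate 1; triangles, replicate 2) of the 6 pairs of member and cluster called between the groups, on linear axes from 0, with the number of nuclei beside each point. In cluster 100 the high Grm8 value of AgRP-Gq;POMC-Gi replicate 2 stands on 9 nuclei.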

How the data were processed

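Per the methods and the file headers, the authors counted UMIs per gene and barcode with Cell Ranger 7.0.0 on GRCm38, introns included, and the deposited matrices hold these raw counts for 44303 barcodes. The authors' deposited metadata give per-nucleus counts of UMIs and genes, the percent of mitochondrial RNA, cell types and preliminary clusters, and a pass mark. The authors removed nuclei under 800 UMIs or 500 genes or with over 10% mitochondrial RNA, and doublets with scDblFinder. The submitters' processing notes also name Seurat 4.3.0. The 39461 nuclei marked as passing were used, 48904976 to 53089402 UMIs per library. The joined matrix of the same libraries and the activity score were not used.

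UMIs were summed per library and cell type, cluster or transmitter class with Python 3.11.15 and given as CPM. Shares of nuclei were also taken after thinning to 800 UMIs (types) or 2000 UMIs (neurons). Tests used edgeR 4.0.16 (R 4.3.3, quasi-likelihood, TMM, genes detected in 5% or more of the nuclei, Benjamini-Hochberg over all genes tested), with DESeq2 1.42.0 as an alternative, and were tested on simulated data. The library was the unit of replication, numbered as in the labels. Droplet counts include free RNA, so the share in oligodendrocytes stands beside the thinned shares of neurons. Of the members, 16 share part of their span with another annotated gene on the same strand, and their reads cannot be told apart there.

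Members and lists were chosen with earlier results of these data known. Values per library are given for the 3 members with the largest called difference between classes in each direction, members highest outside neurons, the 3 with the smallest p between the groups in neurons, members called in a cluster, and the 6 with the largest ratio of highest to median cluster among the better counted. Cnih3 in cluster 72 and the astrocyte values were chosen after their values were seen. Amino acid sequences were not used here.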

Additional observations from a re-analysis of the deposited data

How the results depend on the processing

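The 16 members called between classes kept their sign under each alternative run. Between the groups signs did change: in neurons 21 of 29 members were positive, against 17 without AgRP-Gq;POMC-Gi replicate 1 and 19 without TMM factors, and in Slc17a6 nuclei 22 of 30, against 16 and 18. Between classes, the 16 calls were 9 without the library block (5 higher in Slc32a1 nuclei, 4 in Slc17a6 nuclei), and those higher in Slc17a6 nuclei were 5 without TMM factors and 5 with DESeq2. Over all genes, the 1684 calls were 749 with DESeq2, 706 without the block and 2751 with classes of clusters. Without cluster 72, an alternative chosen after seeing the data, 18 members were called.

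Between the groups, leaving out 1 library gave 0 to 12 called members in neurons, 0 to 7 in Slc32a1 nuclei, 0 to 1 in astrocytes, 0 to 1 in OPC and 0 to 2 in oligodendrocytes, most of them without AgRP-Gq;POMC-Gi replicate 2 (12 members and 2017 genes in neurons). In astrocytes 1 member was called without TMM factors, 2 without a gene filter and 4 with the replicate number as a block, and in oligodendrocytes 1 without a gene filter. In Slc17a6 nuclei none was called in any setting. Within clusters the 6 calls were 10 without a gene filter, 0 with filterByExpr, 0 with DESeq2 and 2 with at least 10 nuclei per library, and 9 to 19 with a library left out. The cause of these changes was not tested.

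Over all genes the counts in neurons were 0, against 12 with DESeq2, 169 with the block, 1 without a filter, 1 with filterByExpr and 3 to 2017 with 1 library left out. In astrocytes 53 became 131 without TMM factors, 305 without a filter and 426 with the block. In oligodendrocytes 0 became 119 with DESeq2, 26 with filterByExpr, 358 without a filter and 226 with the block. In OPC 4 became 14 without TMM factors, 36 without a filter and 2 with DESeq2. In Slc32a1 nuclei 3 became 83 without a filter and 95 with the block. With 1 library left out the counts were 1 to 730 in Slc32a1 nuclei, 6 to 296 in Slc17a6 nuclei, 69 to 160 in astrocytes, 3 to 507 in oligodendrocytes and 0 to 105 in OPC, each highest without AgRP-Gq;POMC-Gi replicate 2 except in astrocytes (without replicate 1 of that group). Pairs of gene and cluster called were 537, against 43 with DESeq2, 110 with filterByExpr and 1102 without a filter.

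Same-numbered libraries correlated in their deviations from the group mean by 0.18 in neurons, 0.24 in astrocytes, 0.34 in oligodendrocytes and 0.07 in OPC. With 2 pairs and no label that ties them, the numbers were not taken as a pairing. For named members, 332 results were counted as the same, 31 lost the call and 15 gained it. Most of the 332 kept their sign and their side of the threshold, while the size of the difference could move. The rest are ratios of group means with clusters reweighted or left out, which have no threshold and moved by less than the spread between libraries. With 2 libraries per group, differences under about the spread between libraries were not detectable, and clusters with few nuclei rest on a few UMIs.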

Other observations

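Beyond the members called, some members were higher in AgRP-Gq;POMC-Gi mice in most clusters. By CPM, Gria4 was higher in 84 and Grin1 in 79 of 120 clusters, where the median gene was higher in 55. Of 5821 genes, 0.996% and 2.49% were higher in at least as many. Over all neurons Gria4 was at 1376, 1346, 1487 and 1356 CPM and Grin1 at 333, 328, 372 and 324 CPM (control replicates 1 and 2, then AgRP-Gq;POMC-Gi replicates 1 and 2), so replicate 1 alone of the latter lay above both controls. Neither gene was called in a single cluster. All clusters share the same 4 libraries, so they are not independent of each other.

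Some members had no UMI in many neuronal clusters. Grm6 had no UMI in 129 of 134 neuronal clusters, Grm2 in 53, Grin2c in 51, Grin3b in 35 and Cnih3 in 21, and Grik1 ran from 1.59 CPM in cluster 146 to 2243 CPM in cluster 161.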
